A study of Mus musculus with 50 samples.

Results

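The genes Srebf1, Fasn, Insig1, Hmgcs1 and Ppara control or carry out lipid and sterol synthesis and fatty acid use in the liver, and they are the 5 genes described here, chosen by name among the 1000 gene targets of an in situ RNA imaging panel. Their transcripts were followed in hepatocyte-sized cells, defined as segmented cells with an area of 15000 square pixels or more, and in the smaller cells of the same mouse livers. Of 49682 cells kept, 20842 were hepatocyte-sized and 28840 were smaller. In the CosMx assay, probes bound to RNA in a tissue section are read out by repeated fluorescent imaging, and every decoded spot is counted as a transcript of a target in a cell. Both groups had received AAV8 Tbg-Cre, a virus whose Tbg promoter drives Cre recombinase in hepatocytes. Control mice were wild type, and HIRA KO mice carried HIRA fl/fl alleles, which directed the deletion of the histone chaperone HIRA to hepatocytes. Per the study's methods the virus was injected into C57BL/6 mice at 6 months of age and livers were collected 12 months later, at 18 months. The 50 fields of view, 25 per group, formed 6 tissue areas on 1 slide, 3 of control and 3 of HIRA KO liver, and the area was taken as the replicate. The study's methods speak of biological replicates, but no label ties an area to a mouse, so that the p-values measure the spread between areas, which may be partly technical. Control areas lay on one side of the slide and HIRA KO areas on the other, so that genotype and side cannot be told apart.

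Sterol synthesis is held in a feedback loop at the endoplasmic reticulum. When sterols are plentiful, the membrane protein INSIG1 retains the precursors of the SREBP transcription factors there, and when sterols fall the precursors leave, are cleaved and switch on genes of cholesterol and fatty acid synthesis. Srebf1 encodes SREBP-1, whose form SREBP-1c is the insulin-responsive activator of fatty acid synthesis in liver. Fasn encodes fatty acid synthase, which builds palmitate. Hmgcs1 encodes the cytosolic HMG-CoA synthase of the mevalonate pathway, and Insig1 is itself a target of the SREBPs. Ppara encodes the nuclear receptor PPARα, which turns on fatty acid oxidation and ketone body synthesis in the fasted liver.

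On the mouse genome GRCm38 (GENCODE vM21 annotation) all of the members are protein-coding genes. Srebf1 lies on chromosome 11 from 60199089 to 60222581 on the minus strand, and Fasn on the same chromosome and strand from 120805846 to 120824547. Insig1 lies on chromosome 5 from 28071363 to 28078662, Hmgcs1 on chromosome 13 from 119690379 to 119708260 and Ppara on chromosome 15 from 85734983 to 85802819, all on the plus strand. The probe sequences were not used here, so that the part of each transcript that was probed is not known. Short stretches of promoter are shown because the loop above works through SREBP binding at the promoters of its targets. The sterol response element TCACCCCAC and the E-box CACGTG, both of which SREBPs can bind, were searched on either strand from 250 bases before to 50 bases after each RefSeq start site (GRCm38.p6), and the capitals mark the match.
Hmgcs1, chr13:119690204-119690232, plus strand: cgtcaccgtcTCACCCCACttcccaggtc
Insig1, chr5:28071301-28071326, plus strand: tgggtgaggtCACGTGgctccggtgg
The first motif was found in 0.551% of all 32851 promoters and in 1 of the 7 promoters of the members, and the second in 7.15% of all promoters and likewise in 1 of the 7. A match is a string of letters and was not measured as a binding site.

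The depth of the data set how much of each gene could be seen. Hepatocyte-sized cells held 450976 to 964396 gene counts per area, with a median of 131, 201 and 133 counts per cell in control areas 1, 2 and 3 and of 190, 234 and 258 in HIRA KO areas 1, 2 and 3. Markers checked the size class: all 10 hepatocyte markers on the panel were higher in hepatocyte-sized than in smaller cells, whereas 7 of 7 stellate, 5 of 6 endothelial, 4 of 5 Kupffer cell and 6 of 10 other immune markers tested were lower, against 27.2% of all 998 targets tested higher and 29.5% lower. The separation was weaker for other types: 2 of 7 cholangiocyte markers were lower and 5 did not pass, 1 of 3 adipocyte markers was higher and 1 lower, and neither of the erythroid markers passed. Hepatocyte markers made up 5.44% to 11.4% of the gene counts of hepatocyte-sized cells, and the markers of all other cell types together 3.51% to 4.55%. Each HIRA KO area (7.86%, 10.4% and 11.4%) had a greater share of hepatocyte markers than any control area (5.44%, 6.53% and 7.02%), and the part of this in the comparisons of genotype was not tested. The transcript of Hira was not on the panel.

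All members were weakly detected, and the 10 negative probes, which match no mouse transcript, give the floor. Over all segmented cells Insig1 had 16141 counts, 4.09 times the highest negative probe, and ranked 47 of 1000 targets. Hmgcs1 had 7687 counts, Srebf1 7245, Fasn 6621 and Ppara 6135, which is 1.95, 1.84, 1.68 and 1.55 times the highest negative probe. A probe without a target thus reached more than 0.5 of the count of each member other than Insig1, and the level of the negative probes is given beside the main results. Levels of different genes are not ranked against each other by RNA amount, since each probe set has its own efficiency.

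Hepatocyte-sized cells were compared with smaller cells of the same area to ask whether the members belong to hepatocytes. Relative to total gene counts every member was higher in hepatocyte-sized cells in all 6 areas, and Insig1 showed the largest difference of the 5. In hepatocyte-sized cells of control areas 1, 2 and 3, Insig1 had 2934, 2348 and 4543 CPM (gene counts scaled to the same total in every area and cell class), and in HIRA KO areas 1, 2 and 3 it had 2084, 2579 and 2441 CPM. In smaller cells it had 1674, 1804 and 2048 CPM in control areas and 1498, 1615 and 1321 CPM in HIRA KO areas. The classes of cells did not overlap in Insig1, and control area 3 stood above all others in hepatocyte-sized cells. The log2 difference of Insig1 between the size classes was 0.68 ± 0.08 (SE, n = 6 areas, edgeR adjusted p = 3.63e-06). For Ppara the difference was 0.55 ± 0.06 (edgeR adjusted p = 8.67e-07), for Fasn 0.48 ± 0.07 (1.91e-05), for Srebf1 0.43 ± 0.06 (1.01e-05) and for Hmgcs1 0.31 ± 0.06 (0.000236). All 5 members therefore passed the threshold of 0.05 as higher, as did 27.2% of the targets tested.

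**Figure D1:**
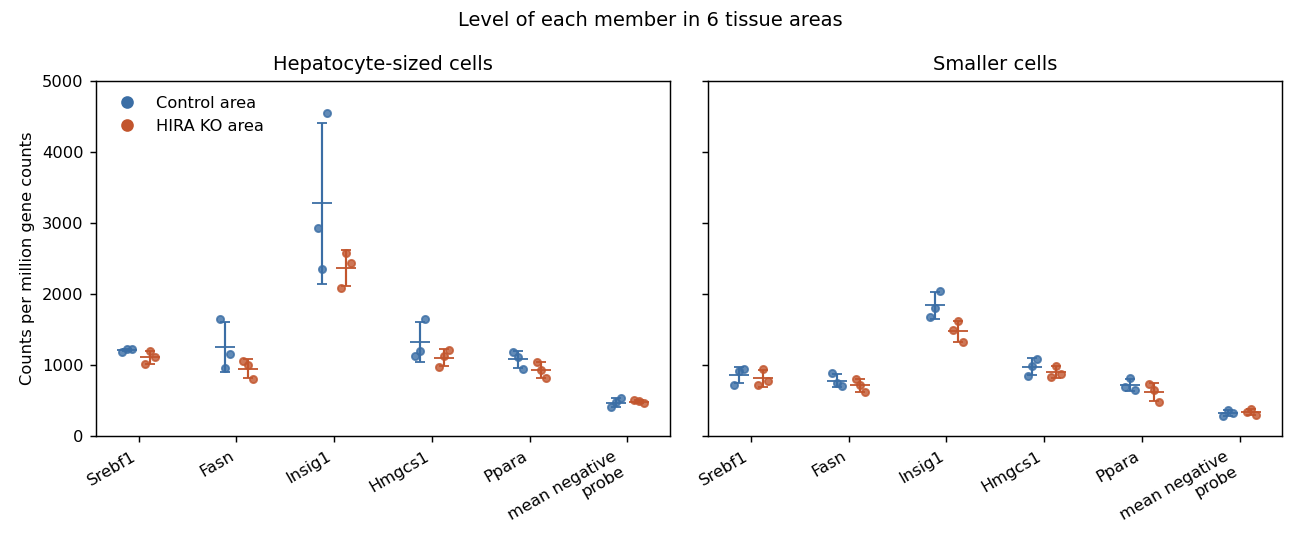
CPM of the 5 members and the mean of the 10 negative probes in hepatocyte-sized (left) and smaller cells (right). Points are tissue areas, horizontal ticks the group means and bars the SD of 3 areas. Every gene and the negative probes stand higher on the left, and Insig1 of control area 3 reaches 4543 CPM.

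The negative probes were higher in hepatocyte-sized cells in all 6 areas as well (two-sided exact sign-flip p = 0.03125, the smallest that 6 areas can give), and the direction of the members depended on the scale. The mean negative probe had 410.2 to 529 CPM in hepatocyte-sized cells and 276 to 386 CPM in smaller cells, a ratio of 1.45 ± 0.13 (SD, n = 6 areas). The corresponding ratio was 1.68 ± 0.33 for Insig1, 1.52 ± 0.16 for Ppara, 1.46 ± 0.24 for Fasn, 1.396 ± 0.135 for Srebf1 and 1.29 ± 0.14 for Hmgcs1. When the size classes were scaled to the negative probes instead of total counts, Insig1 alone stayed higher (log2 difference 0.20 ± 0.09, edgeR adjusted p = 0.0360), in a setting where 1.5% of targets were called higher and 92.2% lower. Hmgcs1 was lower on that scale (-0.17 ± 0.06, edgeR adjusted p = 0.0208). Srebf1 (-0.05 ± 0.07), Fasn (0.00 ± 0.08) and Ppara (0.07 ± 0.07) did not pass the test there. Per cell area, 0.902% of targets were called higher and 95.5% lower by limma. Hmgcs1 was again lower (-0.26 ± 0.09, limma adjusted p = 0.00640), and Insig1 (0.10 ± 0.09), Ppara (-0.03 ± 0.09), Fasn (-0.10 ± 0.09) and Srebf1 (-0.15 ± 0.09) did not pass the test.

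The profile over cell size shows where these scales part. The kept cells of all areas together were divided into 10 equal bins by size. The median cell area, averaged over the 6 areas, ran from 3010.4 square pixels in the smallest bin to 37724 in the largest. The smallest bin held 423 to 559 cells of each control area and 883 to 1340 of each HIRA KO area. The largest held 893 to 967 cells of each control area and 446 to 947 of each HIRA KO area. The density of all targets together fell over the bins from 18052 ± 2001 to 7527 ± 1987 counts per megapixel of cell area (SD, n = 6 areas). Insig1 had 24.5 ± 9.2 counts per megapixel in the smallest bin, 19.7 ± 3.6 in bin 5 and 21.3 ± 4.8 in the largest. Fasn had 13.2 ± 3.4, 7.78 ± 1.54 and 7.74 ± 1.27 in the same bins, Srebf1 14.8 ± 3.1, 9.36 ± 2.13 and 8.89 ± 2.16, Hmgcs1 18.4 ± 4.4, 9.24 ± 1.24 and 9.14 ± 2.05, and Ppara 10.5 ± 3.0, 7.53 ± 1.33 and 8.03 ± 1.62. The mean negative probe went from 4.502 ± 0.665 to 3.82 ± 0.98 and 3.71 ± 1.02. From bin 5 upward the density of each member and of the negative probes differed by less than its spread between areas, while that of the summed targets went on falling. Just below the threshold, from 14000 to 15000 square pixels, 1082 cells had 2199 CPM of Insig1, 921 of Srebf1, 879.6 of Fasn, 1017 of Hmgcs1 and 907 of Ppara. Just above it, up to 16000 square pixels, 1025 cells had 2178, 1014, 814, 1128 and 843 CPM in the same order, so that no step lay at the threshold itself.

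**Figure D2:**
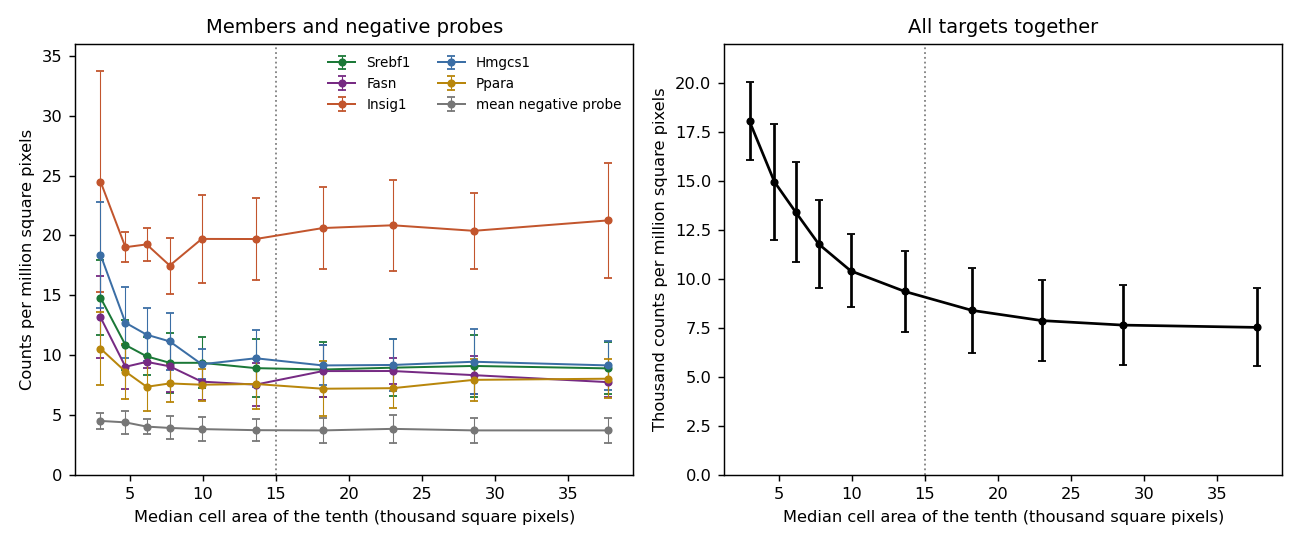
Counts per megapixel of cell area in 10 bins of cells by area, for the members and the mean negative probe (left) and for all targets summed, in units of 1000 counts (right). Points are means and bars SDs of 6 areas, and the dotted line marks 15000 square pixels. The members and the negative probe run level in larger cells, whereas all targets together fall from 18052 to 7527.

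Detection per cell was sparse. A count of Insig1 was present in 32.1%, 34.4% and 40.99% of hepatocyte-sized cells in control areas 1, 2 and 3 and in 32.6%, 43.3% and 43.4% in HIRA KO areas 1, 2 and 3. Hmgcs1 was present in 14.5% to 24.99% of hepatocyte-sized cells, Srebf1 in 14.5% to 23.9%, Ppara in 11.5% to 19.8% and Fasn in 13.7% to 19.9%, against 5.72% to 11.1% for the mean negative probe. Cells with no count of a gene may still express it at this depth. Smaller cells held a count of Insig1 in 12.0% ± 0.7 (SD, n = 6 areas), of the other members in 5.26% to 7.11% and of the mean negative probe in 2.64% ± 0.49. At a common depth of 50 gene counts per cell, kept for 20553 hepatocyte-sized and 20729 smaller cells, Insig1 was expected in 12.7% ± 3.4 against 7.77% ± 0.86 of cells, and the mean negative probe in 2.45% ± 0.17 against 1.59% ± 0.21. The order of the size classes held in all 6 areas for each member and for the negative probes.

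Counts of several members in 1 hepatocyte-sized cell were common, and counts of all were rare. Between 24.8% and 38.4% of the cells in an area had a count of none, 25.9% to 37.7% had counts of at least 2 members, and 0.0645% to 0.353% had counts of all 5. To ask whether members were found in the same cells beyond what depth gives, odds ratios of joint detection were computed within 20 strata of total counts per area, where 1 means no association. The 10 pairs had mean odds ratios from 1.03 to 1.14. Insig1 and Ppara stood first at 1.14 (1.001 to 1.43 over areas, 1632 cells with both), followed by Srebf1 and Ppara at 1.12 (0.97 to 1.36) and by Insig1 and Hmgcs1, a pair of SREBP targets, at 1.12 (0.94 to 1.25). Srebf1 and Fasn, the activator and its classic target, reached 1.11 (0.97 to 1.47), with the highest ratio in control area 3. The lowest ratios were those of Srebf1 and Hmgcs1 at 1.03 (0.87 to 1.24) and of Fasn and Hmgcs1 at 1.03 (0.93 to 1.09). For comparison, the ratio of a member with single negative probes had a mean of 0.99 to 1.04, and its median ratio with all other targets lay between 0.989 and 1.005. Single negative probes reached 1.16 with Fasn, 1.145 with Ppara and 1.13 with Hmgcs1, above every member pair of these genes. This holds for Insig1 and Ppara too, at 1.139. With Srebf1 and Insig1 single negative probes reached 1.08 and 1.07. The median ratio with hepatocyte markers was 1.09 to 1.16, in the range of the highest member pairs. Insig1 and Ppara were the single pair above 1 in all 6 areas, and the ranges of all pairs overlapped. These ratios describe cells of the same areas, and cells are not replicates, so no p is given.

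**Figure D3:**
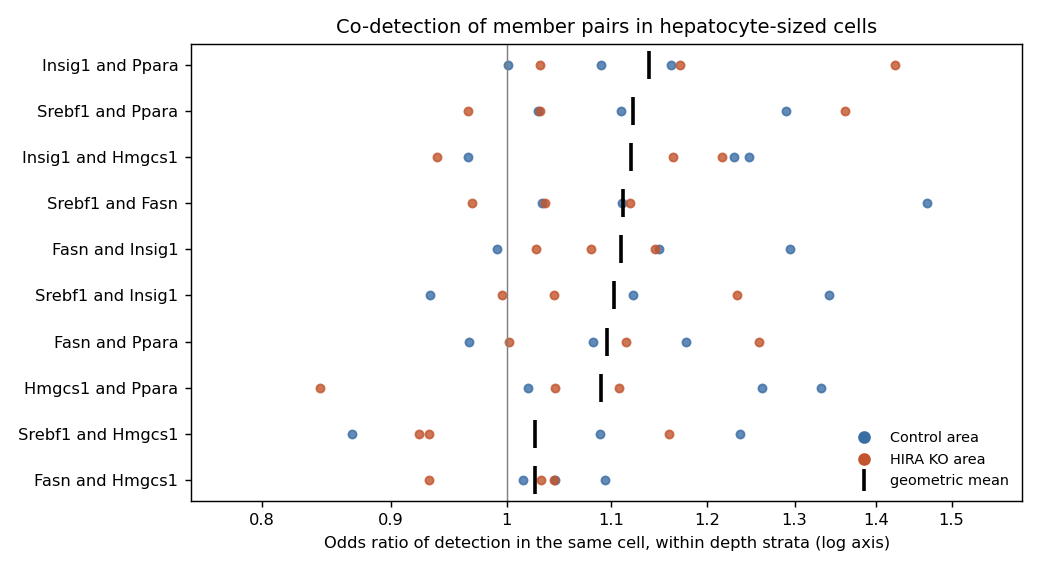
Odds ratio of a count of both genes in the same hepatocyte-sized cell, within strata of total counts, for the 10 member pairs. Points are tissue areas and black bars geometric means on a log axis. Means lie between 1.03 and 1.14, and only Insig1 with Ppara has no area below 1.

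Among 747 other targets above the negative probes, those found most often with a member were largely the same few. Ttr, which encodes the hepatocyte's secreted carrier of thyroxine and retinol-binding protein, stood first for Fasn (odds ratio 1.32), Insig1 (1.70), Hmgcs1 (1.31 over the 5 areas with a finite ratio) and Ppara (1.45 over 5 such areas) and was next to first for Srebf1 (1.38). Its ratio rests on few cells, since 92.5% of hepatocyte-sized cells held a count of Ttr. The nuclear long noncoding RNA Neat1 stood first for Srebf1 (1.43, 1.204 to 1.66 over areas), and was among the 3 most alike for Insig1 (1.35), Ppara (1.26) and Fasn (1.23). Gc, the vitamin D carrier made by hepatocytes, followed for Hmgcs1 (1.26) and Srebf1 (1.22). Vegfa, the endothelial growth factor, followed for Insig1 (1.25) and Fasn (1.23), Fn1, fibronectin, for Hmgcs1 (1.18) and the Wnt receptor Fzd8 for Ppara (1.197). The other members stood lower in this order: for Insig1, Ppara ranked 17, Hmgcs1 28, Fasn 33 and Srebf1 43 of 747. For Hmgcs1, Insig1 ranked 22 and Ppara 44, whereas Srebf1 and Fasn ranked 202 and 205.

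Where the transcripts lay within the cell separated the members. The deposited table of single transcripts places each in the nucleus, the cytoplasm or the membrane region of its cell. In hepatocyte-sized cells 69.9%, 65.0% and 63.3% of Srebf1 transcripts were nuclear in control areas 1, 2 and 3, and 56.6%, 53.4% and 66.4% in HIRA KO areas 1, 2 and 3. The same share was 50.6%, 51.2% and 41.4% over all targets in control areas and 40.8%, 42.6% and 39.5% in HIRA KO areas. Srebf1 was thus above the summed targets in each area, and its pooled share of 62.0% ranked 32 of 748 targets above the negative probes, among which Neat1 was the most nuclear at 90.7%. The nuclear share averaged 56.9% ± 9.4 for Insig1 (SD, n = 6 areas), 55.9% ± 4.9 for Ppara and 54.9% ± 5.3 for Fasn, each above the summed targets in 6 of 6 areas. Hmgcs1 stood apart at 43.3% ± 3.1, above the summed targets in 2 of 6 areas. Negative probes were 25.6% ± 1.6 nuclear. The nucleus covered 17.9%, 17.3% and 17.2% of the area of these cells in control areas 1, 2 and 3. In HIRA KO areas 1, 2 and 3 it covered 20.4%, 20.4% and 18.2%, without overlap.

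In the comparison of nuclear with cytoplasmic and membrane counts within areas, where 36.1% of 998 targets were called higher in the nucleus and 37.8% lower, 4 members were higher and 1 was lower. The log2 difference was 0.94 ± 0.09 for Srebf1 (SE, n = 6 areas, edgeR adjusted p = 4.87e-09), 0.62 ± 0.14 for Insig1 (0.000365), 0.55 ± 0.07 for Ppara (5.22e-07) and 0.48 ± 0.09 for Fasn (2.27e-05). Hmgcs1 was lower by a small margin (-0.18 ± 0.08, edgeR adjusted p = 0.0464), and this call was lost in most other settings, for example with library sizes in place of TMM scaling (-0.06, edgeR adjusted p = 0.509). Scaled to the negative probes, which were mostly cytoplasmic, 97.4% of targets were higher in the nucleus and so were all members, with Hmgcs1 lowest (1.15) and Srebf1 highest (2.28). With the mean negative probe subtracted from either compartment, the nuclear share was 88.4% ± 8.8 for Srebf1, 84.4% ± 5.8 for Ppara, 80.4% ± 12.5 for Fasn, 63.3% ± 9.4 for Insig1 and 55.2% ± 4.1 for Hmgcs1. On that scale Hmgcs1 again had the lowest mean and Insig1 the next, and the areas of Srebf1, Ppara and Fasn overlapped.

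**Figure D4:**
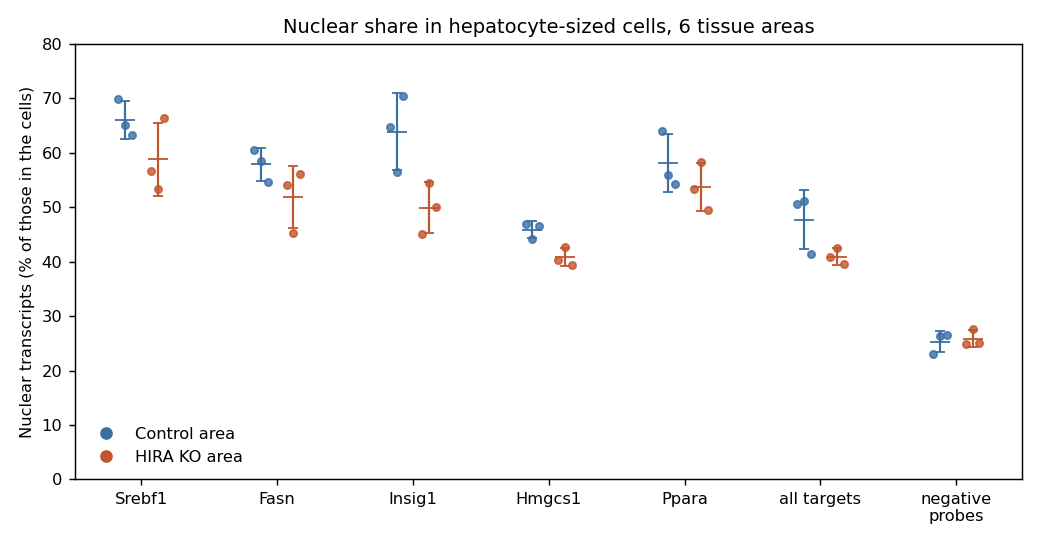
Nuclear transcripts as a percentage of those in hepatocyte-sized cells, for the members, all targets together and the 10 negative probes together. Points are tissue areas, ticks group means and bars the SD of 3 areas. Srebf1 stands highest and Hmgcs1 near all targets, and the Insig1 points of HIRA KO lie below those of control.

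The comparison of genotypes asks whether loss of HIRA moved these genes in hepatocyte-sized cells. None of the members was called, as was the case for all but 0.1% of 998 targets (1 target, Igha, an immunoglobulin heavy chain outside the members and named after its value was seen). At an unadjusted edgeR p under 0.05, 87 targets and none of the members passed. Fasn (unadjusted edgeR p = 0.0248) and Insig1 (0.0418) did so with library sizes in place of TMM scaling. So did both when scaled to the negative probes (unadjusted edgeR p = 0.0144 and 0.0345) and without control area 2 (0.0134 and 0.0410). Fasn did so with the slide row as a block (unadjusted edgeR p = 0.0211). None of these had an adjusted p under 0.05. Fasn had 1645, 958 and 1149 CPM in control areas 1, 2 and 3 and 1050.3, 998 and 800 CPM in HIRA KO areas 1, 2 and 3. The groups overlapped, and control area 1 was the highest. The log2 difference of HIRA KO against control for Fasn was -0.28 (95% interval -0.63 to 0.07, edgeR adjusted p = 0.661), and -0.04 without control area 1. For Insig1, whose values are given above, it was -0.35 (-0.85 to 0.16, edgeR adjusted p = 0.696), and -0.01 without control area 3. Without control area 2 the differences were -0.45 and -0.55, so that both moved with the control area that was left out.

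Srebf1 had 1187, 1219.8 and 1219.6 CPM in control areas and 1015, 1191 and 1109 CPM in HIRA KO areas, with a log2 difference of -0.00 (95% interval -0.25 to 0.24, edgeR adjusted p = 0.999). The control areas of Srebf1 lay close together, and HIRA KO area 2 fell among them. Hmgcs1 had 1130.0, 1202 and 1648 CPM in control areas and 974, 1130.2 and 1209 in HIRA KO areas, with a log2 difference of -0.13 (-0.48 to 0.21, edgeR adjusted p = 0.859). Control area 3, the highest for Insig1, was the highest for Hmgcs1 too. Ppara had 1182, 1112 and 949 CPM in control areas and 1036, 930.1 and 817 in HIRA KO areas, with a log2 difference of -0.10 (-0.34 to 0.13, edgeR adjusted p = 0.849). The intervals allow a change of either sign for each member. These differences carry the TMM scaling, which the CPM do not. With library sizes alone the median of all targets moved to -0.13, and the difference was -0.13 for Srebf1, -0.23 for Ppara, -0.26 for Hmgcs1, -0.40 for Fasn and -0.47 for Insig1 (edgeR adjusted p 0.267 to 0.543). The fields of view within an area differed by up to 2.37-fold for Ppara and 2.19-fold for Hmgcs1, and for Insig1 by 1.199-fold to 1.699-fold.

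Per cell area the mean of each member was higher in HIRA KO, the opposite of the order in CPM. The same held for the panel as a whole. All targets together had 5.50, 8.07 and 5.13 counts per 1000 square pixels in control areas 1, 2 and 3. In HIRA KO areas 1, 2 and 3 they had 8.49, 9.83 and 9.90, without overlap. The median log2 difference per cell area over all targets was 0.498, and each member lay below it, from 0.20 for Insig1 to 0.49 for Srebf1. The order of the mean negative probe did not turn, since HIRA KO was higher on both scales. It had 470 ± 59 CPM in control and 484 ± 21 CPM in HIRA KO areas (SD, n = 3 areas each, exact permutation p = 0.8). Insig1 had 16.1, 18.9 and 23.3 counts per megapixel of cell area in control areas and 17.7, 25.3 and 24.2 in HIRA KO areas, a ratio of HIRA KO to control means of 1.15. The ratio was 1.38 for Srebf1, 1.29 for Hmgcs1, 1.28 for Ppara, 1.17 for Fasn and 1.55 for the mean negative probe. In none of the members were the groups separated, and the exact permutation p over areas was 0.2 to 0.4, where 0.1 is the smallest that 3 against 3 can give. For the negative probes the groups were separated (2.93 ± 0.80 against 4.54 ± 0.30 counts per megapixel of cell area, SD, n = 3 areas each, exact permutation p = 0.1). Relative to the mean negative probe, Insig1 was 6.91 ± 1.82 in control and 4.91 ± 0.64 in HIRA KO, Srebf1 2.59 ± 0.29 and 2.29 ± 0.22, Hmgcs1 2.81 ± 0.29 and 2.29 ± 0.34, Fasn 2.74 ± 1.105 and 1.96 ± 0.19, and Ppara 2.34 ± 0.54 and 1.91 ± 0.15, with exact permutation p of 0.2 to 0.3.

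**Figure D5:**
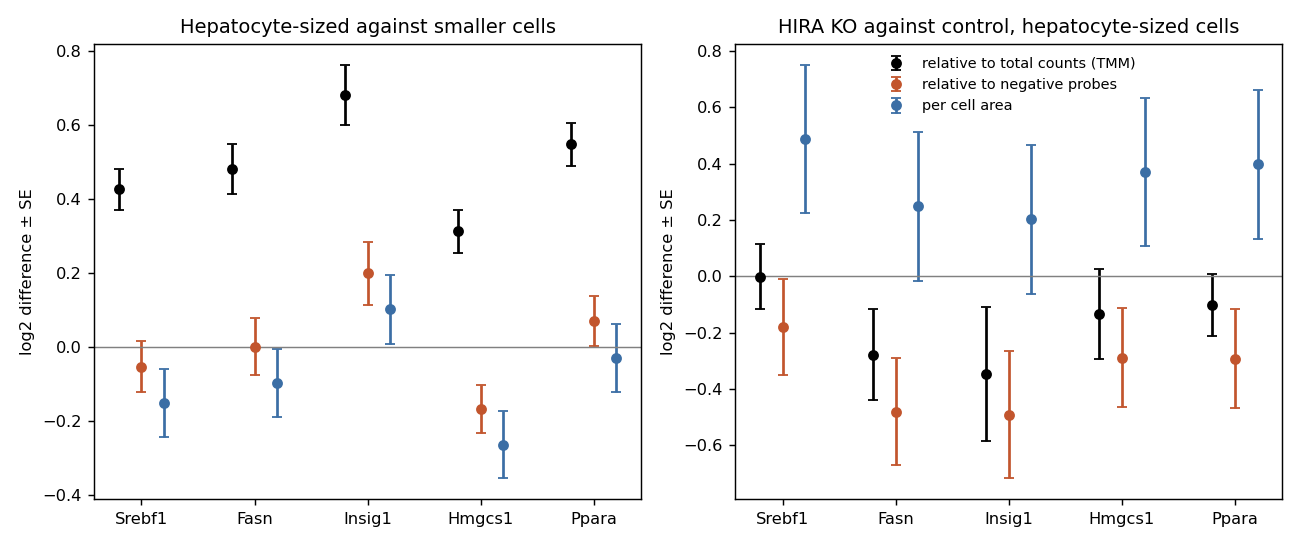
Log2 difference of each member between hepatocyte-sized and smaller cells (left) and between HIRA KO and control hepatocyte-sized cells (right), relative to total counts, to the negative probes and to cell area. Points are fitted values and bars standard errors over 6 areas. On the left all 5 values relative to total counts are above 0, and on the right the values per cell area are above 0 and those relative to the negative probes below it.

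The share of hepatocyte-sized cells with a count of a member moved with depth in the same way. For Srebf1 it was 16.8% ± 3.5 in control and 21.7% ± 3.3 in HIRA KO areas (SD, n = 3 areas each, two-sided exact permutation p = 0.2). Thinned to 100 gene counts per cell, which 18088 of 20842 cells had, 10.9% ± 0.18 of control and 9.96% ± 0.63 of HIRA KO cells were expected to hold a count. Here the groups did not overlap (exact permutation p = 0.1), although the difference was 0.93 percentage points. All 5 members had a higher raw share and a lower thinned share in HIRA KO. The thinned share fell from 26.2% ± 7.6 to 20.3% ± 1.8 for Insig1, with overlapping areas (exact permutation p = 0.3), and the mean negative probe went from 4.44% ± 0.44 to 4.79% ± 0.21.

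In smaller cells no member was called either, where 1 of 998 targets passed, again Igha. The log2 differences ran from -0.23 ± 0.16 (SE) for Insig1 to 0.01 ± 0.16 for Srebf1. Of the cells kept, 49.6%, 54.1% and 44.3% were hepatocyte-sized in control areas 1, 2 and 3. In HIRA KO areas 1, 2 and 3 it was 30.5%, 37.6% and 41.9%, and the part of this in the comparisons of genotype was not tested. The groups did not overlap for Insig1 (control 1842 ± 189 CPM, HIRA KO 1478 ± 148 CPM, SD, n = 3 areas each, exact permutation p = 0.1). Per cell area the order of Insig1 was the opposite there, again without overlap (18.4 ± 1.7 and 20.2 ± 0.7 counts per megapixel of cell area, exact permutation p = 0.1). On that scale Fasn (7.78 ± 1.09 and 9.73 ± 0.61) and Hmgcs1 (9.74 ± 1.26 and 12.3 ± 1.3) did not overlap either (exact permutation p = 0.1 for both). The groups overlapped for Srebf1 and Ppara. In smaller cells all targets together had 9.79, 10.82 and 9.36 counts per 1000 square pixels in control areas 1, 2 and 3. In HIRA KO areas 1, 2 and 3 they had 13.08, 12.99 and 15.13, again without overlap. How many single targets did not overlap was not counted on either scale. The mean negative probe had 322 ± 43 CPM in control and 341 ± 44 CPM in HIRA KO areas there (exact permutation p = 0.7), and 3.23 ± 0.62 and 4.65 ± 0.33 counts per megapixel (exact permutation p = 0.1). The test of the difference between both genotype effects called 0% of 998 targets and no member (42 targets at an unadjusted edgeR p under 0.05, none of them a member). Its value was largest in size for Fasn, -0.23 (95% interval -0.51 to 0.04, edgeR adjusted p = 0.857). For Insig1 it was -0.09 (-0.45 to 0.27).

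The mean nuclear share as counted was lower in HIRA KO than in control areas for each member, and for Insig1 and Hmgcs1 the groups did not overlap. How many of all targets did not overlap was not counted. Insig1 transcripts were 64.8%, 56.5% and 70.5% nuclear in control areas 1, 2 and 3 and 45.1%, 54.4% and 50.1% nuclear in HIRA KO areas 1, 2 and 3. The difference of the means was -14.0 percentage points (exact permutation p = 0.1, the smallest possible). Hmgcs1 was 46.9%, 44.1% and 46.6% nuclear in control and 40.4%, 42.7% and 39.4% in HIRA KO areas, a difference of -5.07 points (exact permutation p = 0.1). All targets together differed by -6.79 points (exact permutation p = 0.2), and the negative probes by 0.58 points (0.8). With the mean negative probe subtracted, the groups stayed apart for Insig1 (70.6% ± 6.1 and 56.0% ± 4.7, exact permutation p = 0.1) and overlapped for Hmgcs1 (57.4% ± 2.7 and 53.0% ± 4.4, exact permutation p = 0.3) and Srebf1 (91.9% ± 2.6 and 84.9% ± 12.2, exact permutation p = 0.5). On that scale the group means of Fasn (80.4% in both) and Ppara (84.3% in control and 84.6% in HIRA KO) lay close together (exact permutation p = 1 for both). Relative to all targets, the genotype by compartment term for Insig1 was -0.58 ± 0.23 on the log2 scale (edgeR adjusted p = 0.378), where 0.1% of 998 targets passed (1 target, the chemokine Cxcl1, named after its value was seen). The term for Insig1 depended on which area was left out: it was -0.95 (edgeR adjusted p = 3.64e-05) without control area 2 and -0.15 (edgeR adjusted p = 0.845) without control area 3. For the other members it lay between -0.17 (Srebf1) and 0.03 (Ppara), with edgeR adjusted p from 0.885 to 0.973.

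Position in the lobule was approached through Glul, the glutamine synthetase that marks hepatocytes around the central vein. Hepatocyte-sized cells were ranked by the Glul level of their 20 nearest hepatocyte-sized cells, and the upper and lower 25% were compared within areas. Of 997 targets 0.903% were called and no member was among them. Hmgcs1 had a log2 difference of 0.14 (95% interval 0.00 to 0.28, edgeR adjusted p = 0.476), Ppara of 0.14 (-0.01 to 0.30, 0.522), Insig1 of 0.02 (-0.12 to 0.15, 0.972), Srebf1 of -0.12 (-0.25 to 0.02, 0.571) and Fasn of -0.13 (-0.27 to 0.00, 0.509). Srebf1 was lower in the high Glul class in 5 of 6 areas, with ratios from 0.822 to 1.13. The ratio of Fasn was 0.737 to 0.899 in control and 0.957 to 1.05 in HIRA KO areas. That of Ppara was 1.13 to 1.35 in control and 0.903 to 1.08 in HIRA KO areas. Insig1 and Hmgcs1 were each higher in the high class in 4 of 6 areas. A difference of these ratios between genotypes was not tested. Between the classes Glul itself differed 3.49-fold, 4.76-fold and 8.52-fold in control areas 1, 2 and 3. In HIRA KO areas 1, 2 and 3 it differed 2.04-fold, 2.49-fold and 9.03-fold. The mean negative probe had 487 ± 54 CPM in the high and 463 ± 39 CPM in the low Glul class (SD, n = 6 areas) and was higher in the high class in 5 of 6 areas. The intervals of all members stayed within about 0.3 on the log2 scale in either direction. Of the lipid genes below, Fabp4, a fatty acid binding protein of endothelial cells and adipocytes, was higher in the high Glul class (0.38 ± 0.09, edgeR adjusted p = 0.0323), as were 6 other targets.

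The members were set beside the other lipid and sterol genes of the panel, 24 further targets from a fixed list. In hepatocyte-sized against smaller cells 10 of the 24 were higher, 4 were lower and 10 did not pass, where 27.2% of all targets were higher and 29.5% lower. The median log2 difference was 0.08 against 0.01 over all targets. The apolipoproteins Apoa1 (0.93 ± 0.07) and Apoc1 (0.72 ± 0.08), both of which also served as hepatocyte markers, were above all members. Acacb, the mitochondrial acetyl-CoA carboxylase that restrains fatty acid oxidation, was higher by 0.31 ± 0.07. Others called higher were the lipolysis inhibitor G0s2 (0.36), the insulin receptor Insr (0.28), the nuclear receptors Rora (0.21), Rxra (0.19) and Pparg (0.15), and the lipid droplet gene Cidea (0.16). The lower ones, Fabp4 (-0.42), Ptgs1 (-0.41), Fabp5 (-0.33) and the fatty acid translocase Cd36 (-0.25), are known from endothelial cells, macrophages or platelets. Sqle, the squalene epoxidase of cholesterol synthesis, did not pass (0.09 ± 0.07). On the scale of the negative probes 3 of the 29 genes of the list, the members included, were higher and 22 lower, against 1.5% and 92.2% of all targets.

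In the nuclear comparison 16 of the 24 were higher, 7 lower and 1 did not pass, where 36.1% of all targets were higher and 37.8% lower. The median was 0.38 against -0.02 over all targets. Among the most nuclear of the list were Srebf1 and Rxrb (0.93 ± 0.10), the partner receptor of PPARα and of the liver X receptors. Sqle (0.67 ± 0.08) lay near Insig1, unlike Hmgcs1 of the same pathway. The lowest values were those of the apolipoproteins Apoc1 (-1.88 ± 0.15), Apoe (-1.66 ± 0.15) and Apoa1 (-1.40 ± 0.11), lipid carriers that hepatocytes secrete. By genotype none of the 24 was called in hepatocyte-sized cells relative to total counts, where 0.1% of all targets were called. Those with the lowest p were Ptgds (-0.25 ± 0.10) and Xbp1 (0.27 ± 0.12), each with an edgeR adjusted p of 0.519, and the median over the 24 was 0.03 against -0.00 over all targets. Per cell area 3 of the 29 genes of the list, none of them a member, were called higher in HIRA KO, where 74 of 998 targets were called. The median log2 difference there was 0.499 over the list and 0.498 over all targets.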

How the data were processed

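CosMx images of FFPE liver sections (5 µm) were decoded and segmented by the platform. The authors deposited raw counts per target and cell, the area and position of each cell, and a table of single transcripts with target and compartment. The pixel size and the segmentation software are not given in the sources used here. Cells with fewer than 20 counts, or with an area over 5 times the geometric mean of 10967 square pixels, were removed as in the study's methods, which left 49682 of 52132. Counts were summed per tissue area and tested in R 4.3.3 by quasi-likelihood F-tests of edgeR 4.0.16 (TMM scaling, filterByExpr, Benjamini-Hochberg adjustment over all targets, threshold 0.05), with the area as a block in comparisons within areas. Negative probes entered no library size or test, except where scaling to them is named, and counts outside cells entered none. The area was taken as the replicate because its fields of view lie side by side. SE was derived from the F statistic. Alternatives were DESeq2 1.42.0, limma 3.58.1 on log2 counts per megapixel (offset 0.5 counts), other cell filters and area thresholds, and each area left out. Single values were compared with exact permutation tests over areas. Joint detection was summarised by the Mantel-Haenszel odds ratio over 20 depth strata, and thinned shares are expected values. On simulated counts for HIRA KO against control (998 targets), 82% of changes of 0.5 on the log2 scale were recovered. Of changes of 1, 100% were recovered, and 10 unchanged targets were called. For changes of 0.5, recovery was 76% for the genotype by size term and 69% for the genotype by compartment term. Each simulation gave all targets 1 common dispersion, so the recovery for a single member, with its own spread between areas, was not measured. Named genes were the members, called or lowest-p genes of the lipid list, and the 3 targets most often detected with each member, and 1 item of the list is not reported here by name. The members, lists and tests were chosen with earlier results of these data known, and the scaling to negative probes and, for cell size, to cell area was chosen after seeing the data. The low counts per member and area limit the precision, and intervals cover counting and area spread as sampled here.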

Additional observations from a re-analysis of the deposited data

Results flagged for a closer look

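Each field of view was compared with the others of its tissue area for the CPM of the 5 members in hepatocyte-sized cells, which made 30 groups of 8 or 9 fields of view. Only 1 field of view stood far from the others: field of view 25 of control area 2 had 1995 CPM of Hmgcs1, against a median of 1035 over the 8 fields of view of that area, and its gap to the nearest was 0.580 of the range. Chance gives about 1 such flag in 20 groups.

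Transcripts outside segmented cells entered no comparison. They numbered 404 for Srebf1, 423 for Fasn, 887 for Insig1, 583 for Hmgcs1 and 419 for Ppara, against 327 for the mean negative probe. As a share of all decoded transcripts of the target, this was 5.28% for Srebf1, 6.01% for Fasn, 5.21% for Insig1, 7.05% for Hmgcs1 and 6.39% for Ppara, below the 9.88% of the negative probes and around the 6.88% of all targets.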

How the results depend on the processing

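Hepatocyte-sized and smaller cells differed in 565 targets, in 935 with scaling to the negative probes and in 962 per cell area, both chosen after seeing the data. The log2 difference of Srebf1 was -0.053 and that of Hmgcs1 -0.17 relative to the negative probes, and per cell area Srebf1 was at -0.15, Fasn at -0.10, Hmgcs1 at -0.26 and Ppara at -0.030. For HIRA KO against control the 1 called target became 15 with DESeq2, 2 with an area of 10000 or more, 44 with the slide row as a block (areas of both groups paired by their place on the slide), 74 per cell area, 0 in cells where hepatocyte markers dominated and 0 to 4 with 1 area left out. No member was called in these settings or with library size only (1 call, -0.13 to -0.47 for the members), and DESeq2 gave no adjusted p for any member but Insig1 (0.362). Srebf1 was at 0.0081 with an area of 10000 or more, and per cell area Srebf1 was at 0.49, Fasn at 0.25, Insig1 at 0.20, Hmgcs1 at 0.37 and Ppara at 0.40. With 1 area left out Srebf1 ranged from -0.051 to 0.087 and Hmgcs1 from -0.25 to 0.075. The genotype by size term had 0 calls, 1 with library size only (where Ppara was at -0.0062) and 0 to 1 with 1 area left out, when Srebf1 ranged from -0.11 to 0.076, Insig1 from -0.25 to 0.091 and Ppara from -0.057 to 0.11.

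In the nuclear comparison Hmgcs1 turned to 1.15 relative to the negative probes. Its call was lost with DESeq2, library size only, an area of 20000 or more, all segmented cells or dominant hepatocyte markers, and without each single area except control area 3, where its log2 difference ranged from -0.28 to -0.11 with 1 area left out. The genotype by compartment term had 1 call, 12 with library size only (Fasn at 0.035, Hmgcs1 at 0.11), 3 with all segmented cells, 0 relative to the negative probes (Ppara at -0.31) and 1 to 18 with 1 area left out, when Srebf1 ranged from -0.44 to 0.068, Fasn from -0.25 to 0.17, Hmgcs1 from -0.23 to 0.21 and Ppara from -0.19 to 0.14. For Glul the 9 calls became 22 relative to the negative probes, 1 with DESeq2, 19 with an area of 10000 or more and 3 to 8 with 1 area left out. Insig1 was there at -0.0050 with all segmented cells, -0.059 relative to the negative probes, -0.058 with the 10 nearest cells and -0.012 to 0.067 with 1 area left out, and Ppara was at -0.0093 with the upper and lower 50% of cells.

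The share of cells with a count differed between HIRA KO and control, after thinning to 100 counts, by -0.93 points for Srebf1, -2.67 for Fasn, -5.87 for Insig1, -1.79 for Hmgcs1 and -1.15 for Ppara. Without depth strata the odds ratio was 1.403 for Srebf1 and Fasn, 1.461 for Srebf1 and Insig1, 1.35 for Srebf1 and Hmgcs1, 1.46 for Srebf1 and Ppara, 1.397 for Fasn and Insig1, 1.27 for Fasn and Hmgcs1, 1.35 for Fasn and Ppara, 1.45 for Insig1 and Hmgcs1, 1.47 for Insig1 and Ppara and 1.39 for Hmgcs1 and Ppara. Of the member log2 values under other settings, 341 kept their direction and side of the threshold, 40 reversed, 13 lost the threshold and 1 passed it. The cause of these changes was not tested. No paired analysis was possible because the labels give the groups no shared replicate number, and the block by slide row above pairs areas by position only.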

Other observations

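Control area 3, which was highest for Insig1 and Hmgcs1 in hepatocyte-sized cells, was highest for both in smaller cells as well (2048 and 1085 CPM), and all 8 of its fields of view lay between 4090 and 4902 CPM of Insig1 in hepatocyte-sized cells, above the highest field of view of any other area (3319 CPM). Ppara, in contrast, had 949 CPM there, the lowest of the control areas. Control area 1 was the highest for Fasn, with fields of view from 1305 to 1923 CPM.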
